A study of Mus musculus with 2 samples.

Results

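Mirlet7a-1, Mirlet7a-2, Mirlet7c-1, Mirlet7c-2, Mirlet7f-1 and Mirlet7f-2 are the let-7 genes whose main product is made by a second gene as well. They were chosen by name, as 6 of the 2202 miRNA genes in the deposited tables. They form 3 pairs, let-7a, let-7c and let-7f. Total RNA of the hippocampus was profiled by microRNA sequencing in male B6CASTF1/J mice aged 18 to 20 months, in 1 group of 2 libraries called replicate 1 and replicate 2. The tissue label of both reads layer of hippocampus, and which part was taken is not stated further. No animal in the series was given another treatment, age or sex, so these data hold levels and the spread between libraries, and no contrast between conditions. The labels number the libraries as biological replicates with separate tissue entries but give both the same donor entry, so the spread between them may be technical. B6CASTF1/J is an F1 hybrid strain, and the reads were counted against the mm10 reference. Whether the parental alleles differ within these hairpins was not analysed here.

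Let-7 microRNAs lower the output of messenger RNAs that pair with the first bases of the mature strand, the seed. Each is cut by the enzymes Drosha and Dicer from a hairpin whose left side gives the 5p strand and whose right side gives the 3p strand. The 5p strand is the well-known let-7 product, and the 3p strand is usually degraded. The family is known for holding back genes of proliferation and early development, and for its high level in mature neurons, where the RNA-binding proteins Lin28a and Lin28b that block its maturation are low. Because several genes encode the same 5p strand, the mature molecule alone does not tell which gene made it.

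The mature 5p strands are shown first because they are what the copies share. The sequences are from RefSeq (GRCm38.p6), written 5′ to 3′, with the seed (bases 2 to 8) in capitals.
mmu-let-7a-5p: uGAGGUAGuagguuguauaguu
mmu-let-7c-5p: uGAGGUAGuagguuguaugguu
mmu-let-7f-5p: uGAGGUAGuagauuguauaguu
All 6 genes thus give 1 seed on this strand. Counted from the 5′ end, let-7c-5p differs from let-7a-5p at A19G and let-7f-5p differs from let-7a-5p at G12A, with let-7a-5p as the reference in each case. The RefSeq table lists no 5p strand for Mirlet7a-2, and the let-7a-5p sequence was found in its hairpin by exact match.

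The 3p strands separate the copies, with a single exception. They are shown with bases 2 to 8 in capitals.
mmu-let-7a-1-3p: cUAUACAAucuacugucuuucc
mmu-let-7c-2-3p: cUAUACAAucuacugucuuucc
mmu-let-7f-1-3p: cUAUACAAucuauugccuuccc
mmu-let-7f-2-3p: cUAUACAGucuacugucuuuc
mmu-let-7a-2-3p: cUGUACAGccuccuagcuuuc
mmu-let-7c-1-3p: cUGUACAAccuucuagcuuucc
Mirlet7a-1, Mirlet7c-2 and Mirlet7f-1 share bases 2 to 8 of the 3p strand, and each of the other 3 genes has a set of its own. The 3p strands of Mirlet7a-1 and Mirlet7c-2, genes of different pairs, are identical over 22 bases. Mirlet7f-2 differs from both at A8G alone, over 21 bases compared, with the Mirlet7a-1 strand as the reference. Within pairs the 3p strands differ at 6 bases for let-7a, 5 for let-7c and 4 for let-7f. The sequence of Mirlet7a-2 is closer to Mirlet7c-1, from which it differs at G8A and C12U (Mirlet7a-2 as reference), than to its partner Mirlet7a-1.

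A read that maps to several places is counted for no gene in these tables, so the sequence of a copy sets which of its reads can be counted. The hairpins of Mirlet7a-1, Mirlet7c-2 and Mirlet7f-2 are printed because Mirlet7a-1 and Mirlet7c-2 have no mature strand of their own and Mirlet7f-2 had the most counts. Capitals mark bases that lie in a 22-base window found in another annotated miRNA hairpin.
Mirlet7a-1: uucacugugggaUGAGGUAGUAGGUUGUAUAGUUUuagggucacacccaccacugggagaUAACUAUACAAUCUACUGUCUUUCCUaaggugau
Mirlet7c-2: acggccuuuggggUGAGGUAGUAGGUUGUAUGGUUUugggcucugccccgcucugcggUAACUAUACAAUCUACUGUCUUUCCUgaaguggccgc
Mirlet7f-2: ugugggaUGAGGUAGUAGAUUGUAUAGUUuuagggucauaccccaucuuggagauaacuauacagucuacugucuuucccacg
In Mirlet7a-1, 49 of 94 bases were shared in this sense, and in Mirlet7c-2 49 of 95, covering both mature strands. In the other 4 hairpins, 22 or 23 bases were shared, which is the 5p strand and at most 1 base beyond it. Over all 6 copies, 20 of 425 windows of 22 bases occurred in another hairpin, 7 each in Mirlet7a-1 and Mirlet7c-2, 2 each in Mirlet7a-2 and Mirlet7c-1, and 1 each in Mirlet7f-1 and Mirlet7f-2. The count of shared windows depends on the length assumed for a read, with 72 of 449 at 18 bases and 6 of 413 at 24 bases. Matches elsewhere in the genome were not analysed here.

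**Figure D1:**
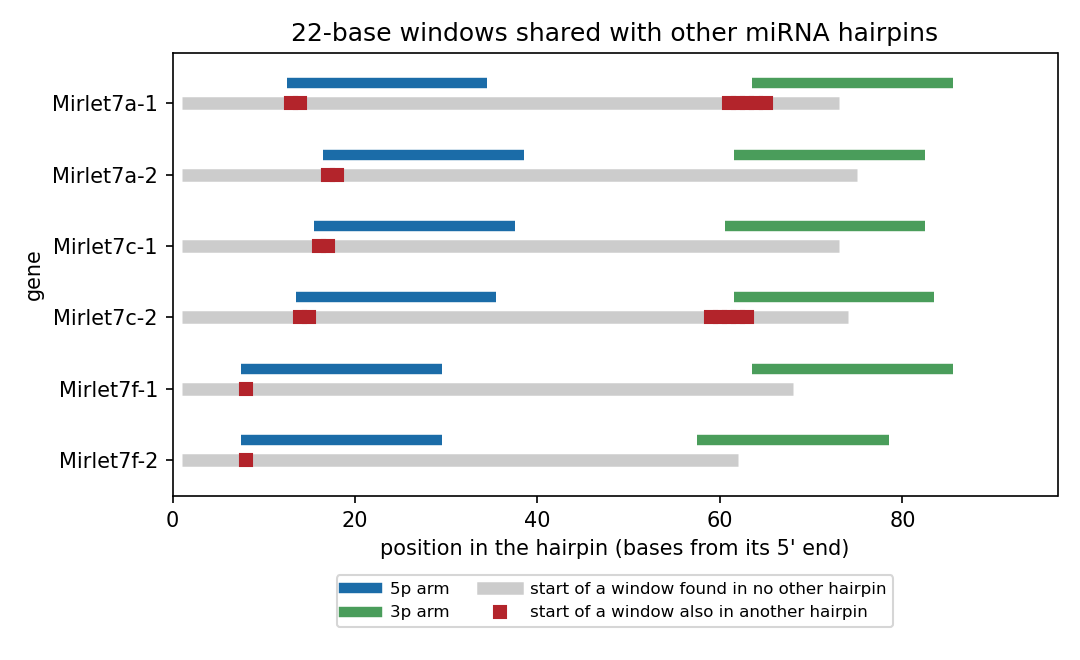
Each row is the hairpin of a copy, with the position in bases from its 5′ end on the x axis, the 5p strand in blue and the 3p strand in green. Red squares mark where a 22-base window starts that also occurs in another annotated miRNA hairpin, and grey marks starts of windows that do not. All 6 rows have red at the 5p strand, and 2 of them, Mirlet7a-1 and Mirlet7c-2, also have red at the 3p strand.

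A read starting at the first base of the 5p strand fits a single hairpin only when it runs past the annotated end of 22 bases into the loop. The copies of let-7a and let-7c part at base 24 and those of let-7f at base 23. The strand and its next 6 bases are shown, with capitals from the first base at which the copies of a pair differ.
Mirlet7a-1: ugagguaguagguuguauaguuuUAGGG
Mirlet7a-2: ugagguaguagguuguauaguuuAGAGU
Mirlet7c-1: ugagguaguagguuguaugguuuAGAGU
Mirlet7c-2: ugagguaguagguuguaugguuuUGGGC
Mirlet7f-1: ugagguaguagauuguauaguuGUGGGG
Mirlet7f-2: ugagguaguagauuguauaguuUUAGGG
Mirlet7a-1, Mirlet7c-2 and Mirlet7f-2 have U at that base, where Mirlet7a-2 and Mirlet7c-1 have A and Mirlet7f-1 has G. For the 3p strands of Mirlet7a-1 and Mirlet7c-2, too, a read from the first base must reach 24 bases, 2 past the annotated end, to fit a single hairpin. The other 4 copies have a 3p strand that occurs in no other annotated hairpin at its annotated length.

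The copies lie at 5 places in the genome, each beside another abundant miRNA gene (mm10 coordinates, GENCODE M21). Mirlet7a-1 (ENSMUSG00000065421.3) occupies chromosome 13 from 48538179 to 48538272 and Mirlet7f-1 (ENSMUSG00000105621.1) lies 261 bases downstream on the same minus strand, from 48537829 to 48537917. Both are in exons of the long non-coding gene 6720427I07Rik, followed by Mirlet7d. Mirlet7a-2 (ENSMUSG00000092770.1) is on chromosome 9 from 41536716 to 41536811, in introns of the non-coding genes 3110039I08Rik and Gm49317, 5211 bases after Mir100. Mirlet7c-1 (ENSMUSG00000065557.3) spans 77599657 to 77599750 of chromosome 16, within an intron of Mir99ahg and 656 bases after Mir99a. Gm11146, annotated as protein-coding, spans the same place on the opposite strand. Mirlet7c-2 (ENSMUSG00000065608.1) spans 85706603 to 85706697 of chromosome 15, within an exon of Lncppara, a non-coding gene, and 621 bases before Mirlet7b. Mirlet7f-2 (ENSMUSG00000065602.1) spans 151912346 to 151912428 of chromosome X, within an intron of Huwe1, which encodes a ubiquitin ligase, 785 bases before Mir98.

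The libraries held 3758318 and 5598792 sense counts over all miRNA genes in replicates 1 and 2, beside 5458072 and 7527048 reads that mapped to several places. MicroRNAs described as neuronal were abundant, with a sum over 12 listed genes of 50948 and 52470 counts per 1000000 sense counts (CPM), and 8 of the 12 had at least 10 counts in both libraries, the limit used here for detection. Among them Mir9-2 (7 and 5 counts) and the 3 copies of Mir124a were not detected, and Mir124a-3 had no count. Reads that fit several copies are not counted, so these counts do not give the level of the mature microRNAs. Genes listed as markers were also read for astrocytes (22987 and 23043 CPM), endothelium (11853 and 10726 CPM), oligodendrocytes (6090 and 9705 CPM) and smooth muscle and pericytes (10192 and 5784 CPM). The last sum was higher in replicate 1. The 2 oligodendrocyte genes went opposite ways, Mir338 with 3083 and 6890 CPM and Mir219a-2 with 3007 and 2815 CPM. In CPM the 2 astrocyte genes did so too, Mir29a with 19511 and 21307 and Mir21a with 3475 and 1735. How specific the listed genes are to a cell type, and their part in the differences between libraries, was not tested. The 3 listed genes of pluripotent cells summed to 1.33 and 2.32 CPM.

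All 6 copies were detected, at levels that spanned a 29-fold range. Together they held 27607 counts in replicate 1 and 43155 in replicate 2, that is 7346 and 7708 CPM, or 7527 ± 256 CPM (mean ± SD, n = 2, as for all later means). This was 0.735% of the counted reads in replicate 1 (Wilson 95% interval 0.726 to 0.743%) and 0.771% in replicate 2 (0.764 to 0.778%). Of the counts of all 12 let-7 genes, the 6 copies held 1.85% (1.83 to 1.87%) and 2.10% (2.08 to 2.12%). There were 198 reads mapped to several places for each count of a copy in replicate 1 and 174 in replicate 2. The tables do not say how many of those reads were let-7, so the counts of a copy describe its countable reads and not its tissue level.

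Mirlet7f-2 had the highest level. It had 18102 counts in replicate 1 and 26283 in replicate 2, or 4817 and 4694 CPM (4755 ± 86.3), and ranked 43 among all miRNA genes by mean CPM. The libraries lay close together on this scale. It held 65.6% and 60.9% of the counts of the 6 copies.

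Mirlet7c-2 came next, and neither of its mature strands is its own. It had 4878 and 9265 counts, or 1298 and 1655 CPM (1476 ± 252), with replicate 2 the higher, and ranked 74. Its level was below that of Mirlet7f-2 in both libraries, by 3.71-fold in replicate 1 and 2.84-fold in replicate 2, and the values of these genes did not overlap.

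Mirlet7c-1 had 1528 and 2848 counts, or 407 and 509 CPM (458 ± 72.2), again with the higher value in replicate 2. Mirlet7f-1 had 1444 and 1817 counts, or 384 and 325 CPM (354 ± 42.2), with the higher value in replicate 1. Mirlet7a-1 had 1172 and 1824 counts, or 312 and 326 CPM (319 ± 9.86). The ranges of Mirlet7f-1 and Mirlet7a-1 overlapped, so these neighbours in the order did not differ beyond their spread, whereas all other neighbours in the order of the 6 levels were separated in both libraries. The gap between Mirlet7c-1 and Mirlet7f-1 was narrow, 407 CPM at the lowest against 384 CPM at the highest.

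Mirlet7a-2 had the lowest level, with 483 and 1118 counts, or 129 and 200 CPM (164 ± 50.3). Its value in replicate 2 was 1.55 times that in replicate 1, the widest relative spread of the 6 in CPM (on the TMM scale used below, Mirlet7f-1 differed more), and it lay below the other 5 copies in both libraries. Even this copy was above the median of the 384 detected genes, 102 CPM.

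**Figure D2:**
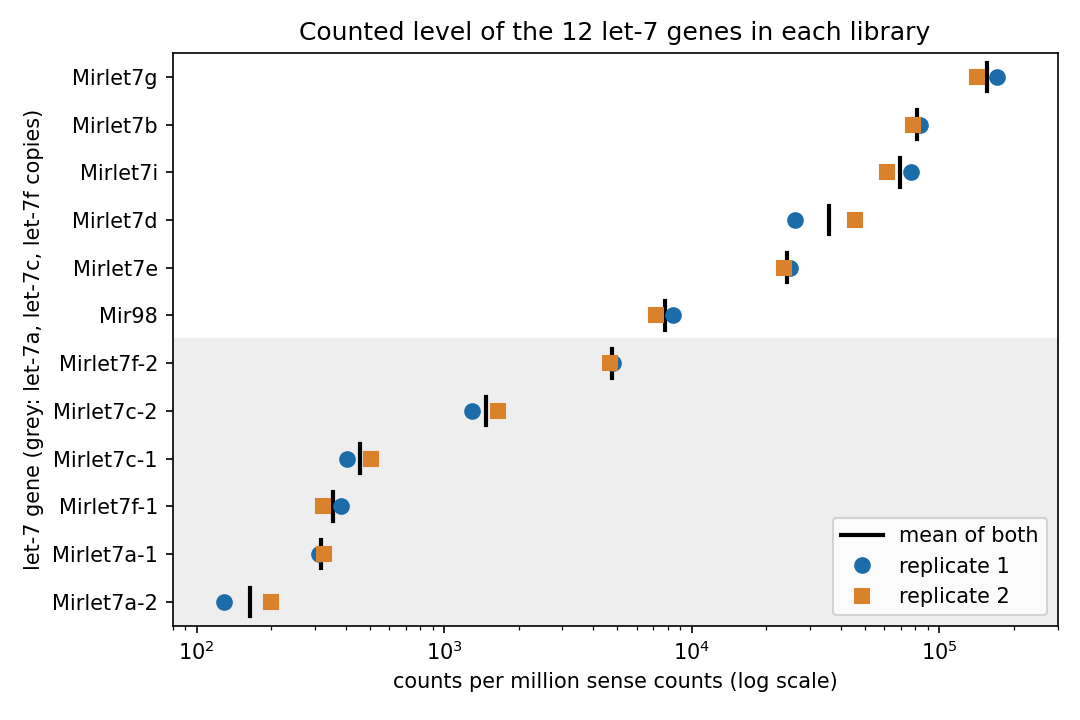
The x axis gives CPM on a log scale for the 12 let-7 genes, with circles for replicate 1, squares for replicate 2 and a bar for their mean. The 6 copies, on grey, run from 164 CPM for Mirlet7a-2 to 4755 CPM for Mirlet7f-2, below the 7795 CPM of Mir98, the lowest of the others. Only countable reads enter these levels.

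The other 6 let-7 genes had higher counts than any of the copies, with means from 7795 CPM for Mir98 to 156275 CPM for Mirlet7g and a median of 52561 CPM. The median of the copies was 406 CPM. The gap between the groups is 1.64-fold at its edge, Mir98 over Mirlet7f-2, which are neighbours on chromosome X. Reads that fit several places are left out, so the groups are compared by countable reads and not by tissue level.

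The 2 copies of each pair were counted unequally, and the same copy led in both libraries. A share within a pair does not depend on how libraries are scaled. Mirlet7f-2 held 92.6% of the let-7f counts in replicate 1 (Wilson 95% interval 92.2 to 93.0%) and 93.5% in replicate 2 (93.2 to 93.8%), 12.5 and 14.5 times the counts of Mirlet7f-1. Mirlet7c-2 held 76.1% of the let-7c counts (75.1 to 77.2%) and 76.5% (75.7 to 77.2%), 3.19 and 3.25 times those of Mirlet7c-1. Mirlet7a-1 held 70.8% of the let-7a counts (68.6 to 73.0%) and 62.0% (60.2 to 63.7%), 2.43 and 1.63 times those of Mirlet7a-2. The let-7c shares overlapped between libraries within counting error, the let-7f shares differed by under 1 percentage point with intervals that did not overlap, and the let-7a shares differed by 8.82 percentage points.

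**Figure D3:**
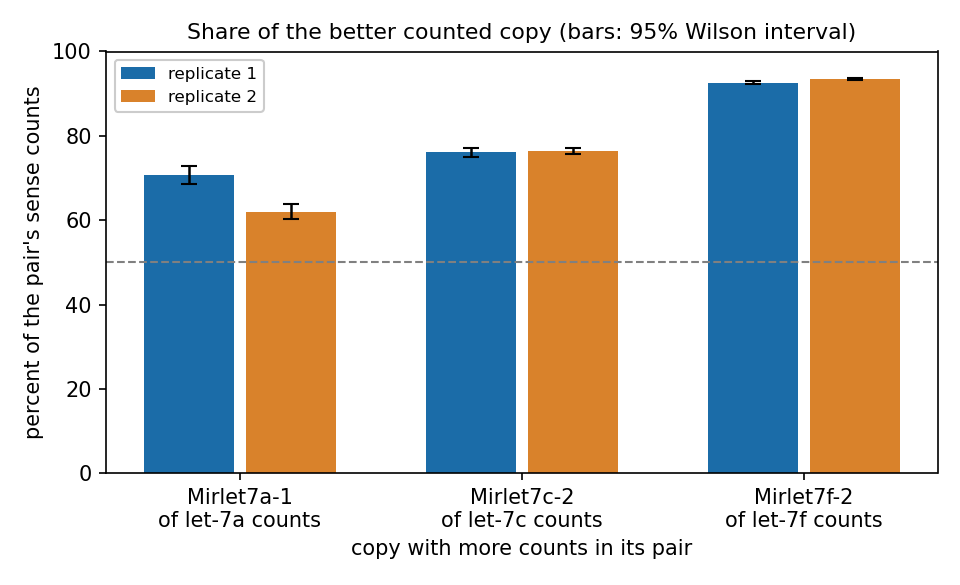
Bars give the percent of a pair's sense counts that came from its better counted copy in each library, with 95% Wilson intervals as error bars and a dashed line at equal shares. All bars stand above the line, from 62.0% for Mirlet7a-1 in replicate 2 to 93.5% for Mirlet7f-2 in replicate 2.

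In the let-7c pair the copy with more counts was Mirlet7c-2, which has no 3p strand of its own. Mirlet7c-1 has a 3p strand found in no other annotated hairpin. The let-7a pair had the same order, with more counts for Mirlet7a-1, which has no 3p strand of its own, than for Mirlet7a-2, which has. In all 3 pairs the leading copy was the one with U as the first base that separates it from its partner beyond the 5p strand, as printed above. This was seen after the counts were known, over 3 pairs only. The part of this base, or of an own 3p strand, in the counts was not tested, since read sequences and lengths are not given.

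Genes were also grouped by how many of their mature strands they share. Of 1018 miRNA genes with a RefSeq mature strand that matched by symbol and hairpin, 50 had every listed strand present in another hairpin, and 7 of these (14.0%) were detected, against 343 of all 1018 (33.7%). Of genes with no shared strand 296 of 906 (32.7%) were detected. Of genes with some strands shared, the class of the other 4 copies, 40 of 62 (64.5%) were detected. Mirlet7a-2 was placed there by the 5p strand found in its hairpin by exact match. By its listed strand alone it would have no shared strand. The classes were not matched in other respects, and the part of sharing in detection was not tested. Mirlet7c-2 and Mirlet7a-1 took ranks 2 and 3 of the 50 by mean CPM, after Mir219a-2 at 2911 ± 136.04 CPM and before Mir9-3 at 138.05 ± 31.3 CPM. The table of mature strands does not cover all genes, and most of the 50 have only 1 strand there. Among the 7 detected these are Mir219a-2, Mir129-1 and Mir3074-1, so the class and its ranks rest on an incomplete listing.

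The copies were counted at different proportions of their neighbours. For each count of Mirlet7f-2 there were 1.75 counts of Mir98, its neighbour on chromosome X, in replicate 1 and 1.53 in replicate 2. For each count of Mirlet7c-2 there were 64.3 and 47.5 of Mirlet7b. For each count of Mirlet7c-1 there were 97.2 and 51.8 of Mir99a, a gene of the mir-99/100 family with a different seed. Mir100, of that same family, had 54.2 and 23.7 counts for each of Mirlet7a-2. On chromosome 13, Mirlet7d had 83.9 and 141 counts for each count of Mirlet7a-1, and 68.1 and 141 for each of Mirlet7f-1. The ratios to Mir99a, Mir100, Mirlet7b and Mir98 were thus lower in replicate 2 and those to Mirlet7d higher. Mirlet7a-1 and Mirlet7f-1, 261 bases apart, were counted nearly alike, at 1.23 counts of Mirlet7f-1 for each of Mirlet7a-1 in replicate 1 and 0.996 in replicate 2.

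The libraries were compared gene by gene with an exact binomial test on sizes scaled by TMM, the trimmed mean of M values, and Benjamini-Hochberg adjustment over all 384 detected genes. This compares libraries and not conditions. With 1 library a side, its p-values set a difference against counting error only and treat reads as independent, so they do not measure spread between samples, and in bulk tissue fewer cells of a type and less RNA per cell cannot be told apart. The test called 65.1% of all detected genes, of which those higher in replicate 1 made up 34.1% of the detected genes and those higher in replicate 2 31.0%. Of the 6 copies it called 4, a share near the 65.1% of all detected genes. It called 3 of the 6 higher in replicate 1, against 34.1% of the detected genes. Mirlet7f-1 was 1.47-fold higher in replicate 1 (log2 ratio 0.56, adjusted p = 4.45e-27), Mirlet7f-2 1.28-fold (0.35, adjusted p = 5.49e-139) and Mirlet7a-1 1.19-fold (0.25, adjusted p = 7.15e-06). Mirlet7a-2 was 1.25-fold higher in replicate 2 (log2 ratio -0.32, adjusted p = 8.54e-05). Mirlet7c-1 and Mirlet7c-2 did not pass, with log2 ratios of -0.0065 (adjusted p = 0.931) and -0.034 (adjusted p = 0.241).

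Scaling decides some of these directions. With total counts in place of TMM, which shifts the median log2 ratio by -0.32, the test called 70.6% of detected genes (19.8% higher in replicate 1, 50.8% in replicate 2) and 5 of the 6 copies (2 and 3). Then replicate 2 had the higher level of Mirlet7c-1, 1.25-fold, and of Mirlet7c-2, 1.27-fold, and Mirlet7a-1 did not pass, with a log2 ratio of -0.063 (exact binomial test, adjusted p = 0.305). Mirlet7f-1 and Mirlet7f-2 kept their direction with smaller log2 ratios, 0.24 (adjusted p = 3.73e-06) and 0.037 (adjusted p = 0.0123), and Mirlet7a-2 kept its direction with -0.64 (adjusted p = 3.25e-16), by the same exact binomial test.

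The differences were mostly smaller than those of other genes on the TMM scale. Genes were not matched for depth in this comparison. The limit for detection was 10 counts, whereas each copy had at least 483 in both libraries. The median absolute log2 ratio was 0.29 over the 6 copies and 0.44 over all detected genes, a 1.36-fold difference, and 5 of the 6 copies lay below that median, the exception being Mirlet7f-1. The edgeR common dispersion gave a coefficient of variation of 34.4% between the libraries over the same genes. On the TMM scale the 6 other let-7 genes and 6 genes of the mir-99/100 and mir-125 families, which lie in let-7 clusters, were all called. Over all detected genes 65.1% were called, 34.1% higher in replicate 1. Of the 12 genes, 10 were higher in replicate 1, and Mirlet7d (log2 ratio -0.49) and Mir125a (-1.17) in replicate 2. Each of the 12 had at least 1847 counts in both libraries. Their median log2 ratio was 0.49, against 0.12 over the 6 copies and 0.0075 over all detected genes. Under total counts 9 of the 12 were called higher in replicate 1, against 19.8% of all detected genes. The medians were then 0.18 for the 12 genes, -0.19 for the 6 copies and -0.31 for all detected genes. The median absolute log2 ratio of the 6 other let-7 genes was 0.52 with TMM and 0.24 with total counts, and that of the copies 0.29 and 0.28.

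**Figure D4:**
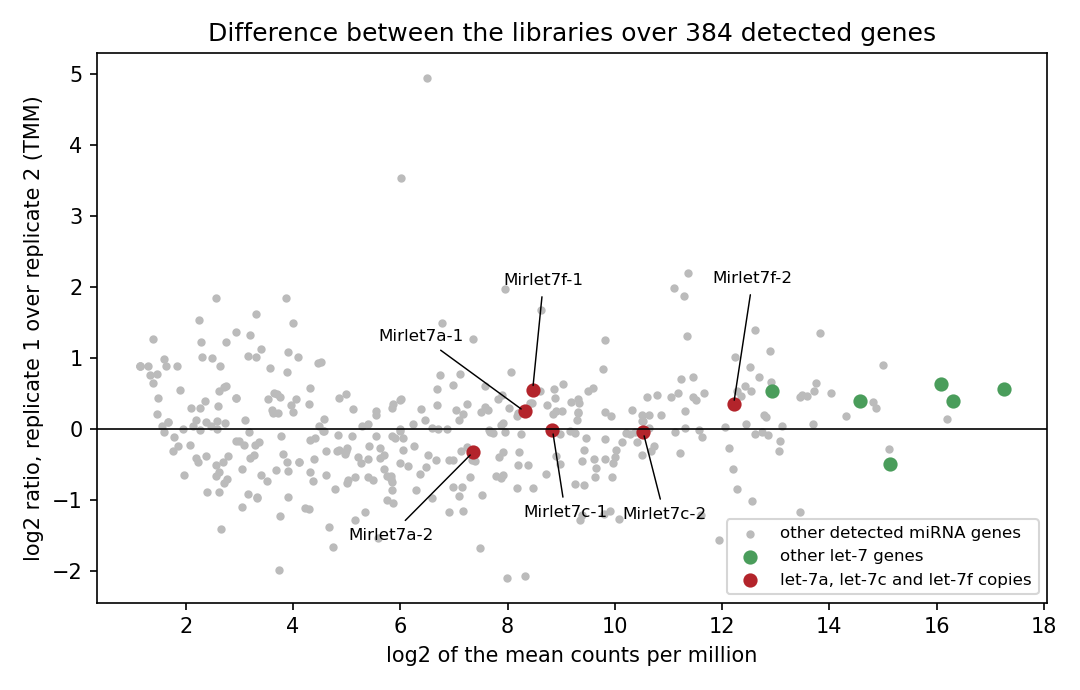
The x axis is the log2 mean CPM and the y axis the log2 ratio of replicate 1 over replicate 2 on the TMM scale, with 1 point for each of the 384 detected genes. The 6 copies, in red, lie between -0.32 for Mirlet7a-2 and 0.56 for Mirlet7f-1, among the grey points of the other genes, and 5 of the 6 other let-7 genes, in green, lie above 0.

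Strand mattered for 1 copy. The hairpin of Mirlet7f-1 lies within Gm24111, a miRNA gene annotated on the opposite strand of chromosome 13 from 48537825 to 48537921. Its 1444 and 1817 sense counts became 0 in both libraries when strand was ignored, since a read that overlaps both genes is then ambiguous. For the other 5 copies the unstranded and sense counts were equal, apart from 1 count of Mirlet7a-1 in replicate 1.

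Genes with the most similar pair of levels were found by distance in log2(CPM + 1) over the 2 libraries, leaving out let-7 genes. Nearest to Mirlet7f-2 were Mir335 (5335 and 4567 CPM, distance 0.15) and Mir30d (5520 and 4984 CPM, 0.21). Nearest to Mirlet7c-2 were Mir195a (1348 and 1551 CPM, 0.11) and Mir130a (1381 and 1583 CPM, 0.11). Mir17 and Mir300 were nearest to Mirlet7c-1 (0.16 and 0.20), Mir672 and Mir134 to Mirlet7f-1 (0.13 and 0.15), Mir134 and Mir3099 to Mirlet7a-1 (0.16 and 0.17), and Mir1224 and Mir664 to Mirlet7a-2 (both 0.09).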

How the data were processed

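The authors deposited, for each library, a table of raw read counts per miRNA gene, made on mm10 with GENCODE M21 per the labels and accompanying notes. The aligner is not given in the sources used here, nor is the counter. Each table has 4 summary lines, kept out of library sizes, and an unstranded and 2 stranded columns. The stranded column with the larger total was taken as sense (opposite strand: 287729 and 425273 counts). Counts summed to 3758318 and 5598792.

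GENCODE M21 named all 2202 genes. CPM were computed over all sense counts. TMM factors and dispersion came from edgeR 4.0.16, alternative size factors from DESeq2 1.42.0, and tests and intervals from scipy 1.17.1. Exact two-sided binomial tests covered genes with at least 10 counts in both libraries, with adjusted p under 0.05 called. The test was checked on simulated counts with counting error only. That check does not cover the wider spread seen between these libraries. Counts of the libraries differed beyond sampling noise (chi-square 243109, 383 degrees of freedom), so they are not 2 random draws of reads from 1 pool. The test cannot tell a second preparation of the same RNA from a second sample. It does not show separate animals, and the count of 2 samples rests on the replicate numbers in the labels. Hairpin windows were matched on both strands, leaving out genes at the same place. A count of 0 allows up to 3 counts (0.798 and 0.536 CPM). Intervals, this limit and the p-values cover counting error only, as reads carry no molecular identifiers. The named genes were the copies, the other let-7 genes and their cluster partners, miRNA genes within 10 kb and the 2 nearest genes by level, and others are named where a count calls for it. The members and lists were chosen with earlier results of these data known.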

Additional observations from a re-analysis of the deposited data

Results flagged for a closer look

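The opposite-strand column, which no comparison uses, held 5 counts at Mirlet7f-1 in replicate 1 and 0 in replicate 2, above the 3 counts that a count of 0 allows. They are the sense counts of Gm24111, the miRNA gene annotated on the other strand.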

How the results depend on the processing

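The summed level of the 6 copies was 7527 CPM and kept within its spread with unstranded counts, TMM or DESeq2 size factors. With unstranded counts single copies moved beyond their spread. Mirlet7f-1 fell from 354 to 0 CPM, while Mirlet7a-1 rose from 319 to 345 CPM and Mirlet7f-2 from 4755 to 5148 CPM. The other copies rose within their spread. The summed level was 3142 per 1000000 when reads mapped to several places were added to the total and 2641 per 1000000 of all reads. It ran from 7346 to 7708 CPM with either replicate left out. The share of Mirlet7f-1 in the let-7f counts was 6.93% and became 0% with unstranded counts, by construction, as that gene overlaps Gm24111. With either replicate left out it ran from 6.47 to 7.39%, that of Mirlet7c-1 in let-7c from 23.5 to 23.9% and that of Mirlet7a-1 in let-7a from 62.0 to 70.8%. The 20 shared windows of 22 bases were 72 at 18 bases, 42 at 20 and 6 at 24. Between libraries, 3 to 5 copies were called over 6 alternatives, the 3 with unstranded counts, where Mirlet7f-1 had 0 counts and was not tested. Over all tested genes the test called 250 of 384 with TMM, 271 of 384 with total counts and 228 of 358 with unstranded counts. The log2 ratio of Mirlet7a-1 turned from 0.25 to -0.063 with total counts, where the calls over all detected genes split into 76 higher in replicate 1 and 195 in replicate 2, against 131 and 119 with TMM. The nearest genes were the same 12 pairings under both other pseudocounts. Matching to the whole genome was not run. No paired analysis was possible because there is 1 group. With 2 libraries, no statement extends beyond these samples.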
